A study of Mus musculus with 22 samples.

Results

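Nrxn2, Nrxn3, Nlgn1 and Nlgn2, 4 genes of the neurexin and neuroligin families, were followed through the 5-methylcytosine (5mC) and 5-hydroxymethylcytosine (5hmC) levels of mouse cortex, olfactory bulb and cerebellum. The genes were chosen by name from 21728 protein-coding genes of GENCODE vM21, with earlier results of these data known, and which measured values led to the choice is not recorded, so their levels are given as a description. Each gene was taken at its span in mm10 (GRCm38), together with every deposited bin that overlapped it and 500 kb on either side. This gave 30 of the 26327 bins of 100 kb with 5mC levels and 7 of the 2641 bins of 1 Mb with 5hmC levels.

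The mice were C57BL/6 females of 8 weeks, with no treatment named for any group, and replicates of a tissue came from independent mice. The paper words the 3 tissues as taken from a single mouse, so libraries of different tissues may share an animal. Which ones do is not stated, and the main fits hold no term for the animal. 5mC was read by oxBS-seq, where an oxidant removes the 5hmC signal before bisulfite treatment, in 3 cortex, 2 olfactory bulb and 2 cerebellum libraries. 5hmC was read by TAB-seq, where a sugar shields 5hmC while TET oxidation strips the 5mC signal, in 3 libraries per tissue. The cortex was the whole cerebral cortex without the hippocampus and the other tissues were taken whole, so every level is an average over all cell types of the tissue. The values were fractions between 0 and 1 with no coverage, so the depth behind a bin is unknown and the error given is the SD between libraries.

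Neurexins are cell adhesion proteins of the presynaptic membrane, and neuroligins are the postsynaptic proteins that bind them across the cleft. A neurexin gene makes a long α form from an upstream start and a shorter β form from a start inside the gene, which removes most of the extracellular domains. Neuroligin 1 is known from excitatory synapses, and neuroligin 2 from inhibitory ones. In the brain, 5hmC is made from 5mC by TET enzymes and accumulates in the bodies of genes of neurons.

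The genes differed greatly in how well the bins resolved them. Nrxn3 (ENSMUSG00000066392.11, chr12:88722876-90334935, plus strand) was 1612 kb long and covered 17 bins of 100 kb, 15 of them wholly inside the gene, with 0 other protein-coding genes in any of them. Nlgn1 (ENSMUSG00000063887.13, chr3:25426215-26332460, minus strand) was 906 kb long and covered 10 bins, 8 of them wholly inside, again with 0 other coding genes. Nrxn2 (ENSMUSG00000033768.17, chr19:6418731-6544169, plus strand) was 125 kb long and made up 62.7% of its 2 bins, which it shared with Rasgrp2 and Slc22a12. Nlgn2 (ENSMUSG00000051790.15, chr11:69823122-69837784, minus strand) was 14.7 kb long and made up only 14.7% of its 1 bin, which held 12 other coding genes. At 1 Mb, 100% of the middle bin of Nrxn3 lay in the gene, but only 27.7% of its 5′ bin and 33.5% of its 3′ bin. Of the 5′ and 3′ bins of Nlgn1, 33.2% and 57.4% lay in the gene. Only 12.5% of the bin of Nrxn2 and 1.47% of that of Nlgn2 did, and these bins also held 46 and 64 other coding genes. The 1 Mb values of Nrxn2 and Nlgn2 are thus values of gene-dense regions more than of the genes.

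RefSeq transcription starts with 300 bases around them (250 before and 50 after each start, GRCm38.p6) were matched for 3 of the 4 genes. Of the 3 starts of Nrxn3, the upstream and the innermost one, and the inner start of Nlgn1 are shown because their bins held the lowest 5mC along these genes, and the outer start of Nlgn1 for comparison, with CpG sites (CG, which reads the same on both strands) in capitals. The upstream start of Nrxn3 (chr12:88794254-88794553, plus strand) held 2 CpG sites and the internal start (chr12:89812233-89812532, plus strand) held 16, with 6 at the start between them (chr12:88953140-88953439, not printed), against a median of 7 over 32851 promoters, of which 94.6% held at least 1. The outer start of Nlgn1 (chr3:26331860-26332159, minus strand) held 14 CpG sites and the inner start (chr3:26153937-26154236, minus strand) held 6.
Nrxn3, upstream start: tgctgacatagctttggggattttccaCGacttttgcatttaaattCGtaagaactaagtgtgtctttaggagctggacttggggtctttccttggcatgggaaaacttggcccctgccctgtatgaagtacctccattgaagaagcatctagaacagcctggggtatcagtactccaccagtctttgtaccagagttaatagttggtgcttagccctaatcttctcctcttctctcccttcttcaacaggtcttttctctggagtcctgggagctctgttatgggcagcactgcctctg
Nrxn3, internal start: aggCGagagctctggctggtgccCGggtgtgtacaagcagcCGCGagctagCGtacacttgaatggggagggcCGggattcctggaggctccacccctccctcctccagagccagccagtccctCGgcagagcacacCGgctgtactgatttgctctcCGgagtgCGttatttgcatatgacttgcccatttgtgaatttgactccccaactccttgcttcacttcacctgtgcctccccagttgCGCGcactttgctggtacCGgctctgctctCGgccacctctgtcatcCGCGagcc
Nlgn1, outer start: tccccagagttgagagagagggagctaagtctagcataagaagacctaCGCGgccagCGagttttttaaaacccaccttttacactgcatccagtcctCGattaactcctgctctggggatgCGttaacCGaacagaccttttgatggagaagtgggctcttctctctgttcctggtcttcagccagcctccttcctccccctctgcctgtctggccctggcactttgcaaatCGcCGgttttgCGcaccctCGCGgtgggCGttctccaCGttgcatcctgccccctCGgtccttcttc
Nlgn1, inner start: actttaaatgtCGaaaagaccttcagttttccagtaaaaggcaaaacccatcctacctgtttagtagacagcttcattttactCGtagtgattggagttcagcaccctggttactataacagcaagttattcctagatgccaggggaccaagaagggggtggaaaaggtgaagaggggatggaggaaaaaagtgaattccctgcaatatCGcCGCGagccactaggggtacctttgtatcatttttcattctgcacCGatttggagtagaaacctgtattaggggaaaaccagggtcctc
The internal start of Nrxn3 had more CpG sites than 67.0% of the promoters, and its upstream start more than 14.1%. The bins used here are far wider than these windows, so no level of a promoter itself was measured.

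Across all protein-coding genes the cortex had the lowest 5mC and the highest 5hmC. The median 5mC level of 21691 genes was 0.631 (cortex), 0.664 (olfactory bulb) and 0.685 (cerebellum), and the median 5hmC level was 0.175, 0.149 and 0.107. On the log2 ratio scale, log2(level/(1 − level)), the median gene stood 0.20 higher in olfactory bulb and 0.29 higher in cerebellum than in cortex for 5mC, and for 5hmC it stood at -0.27 and -0.76. Differences of the 4 genes are therefore also given relative to these medians. As a check of the labels, 5mC was lowest in cerebellum for 5 of 6 granule neuron genes, in cortex for 5 of 6 genes of cortical excitatory neurons and in olfactory bulb for 6 of 6 genes of its interneurons. Several of these genes lie in the same bins and share their values (Zic1 and Zic4, Dlx1 and Dlx2, Dlx5 and Dlx6). Relative to the median gene of each tissue the counts were 6 of 6 (granule neurons), 4 of 6 (cortical neurons) and 5 of 6 (olfactory bulb interneurons). Of the glial lists, 5 of 6 astrocyte genes and 5 of 6 oligodendrocyte genes were lowest in cortex, the tissue with the lowest median. Relative to the median gene of each tissue, 3 of 6 and 2 of 6 were. Since the tissues differ in their cell types, a different share of cells and a different level per cell cannot be told apart in any result below.

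Nrxn3, the longest of the genes, had the lowest 5mC and the highest 5hmC in olfactory bulb. Its mean 5mC level over 17 bins was 0.658, 0.656 and 0.642 in the cortex libraries, 0.584 and 0.584 in those of olfactory bulb and 0.703 and 0.686 in those of cerebellum. The libraries of the 3 tissues did not overlap. The means were 0.652 ± 0.00879 (SD, n = 3), 0.584 ± 2.97e-05 (n = 2) and 0.694 ± 0.0124 (n = 2), and 21.9% of all genes were lower in olfactory bulb, against 58.9% in cortex and 53.9% in cerebellum. The difference between olfactory bulb and cortex was -0.42 ± 0.11 (SE) on the log2 ratio scale, which is -0.62 relative to the median gene, and only 0.475% of genes had a lower fraction difference. The cerebellum stood 0.28 ± 0.11 above cortex as deposited, but -0.01 relative to the median gene, so the sign of this difference depends on the scaling. These gene means hide a strong course along the gene.

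**Figure D1:**
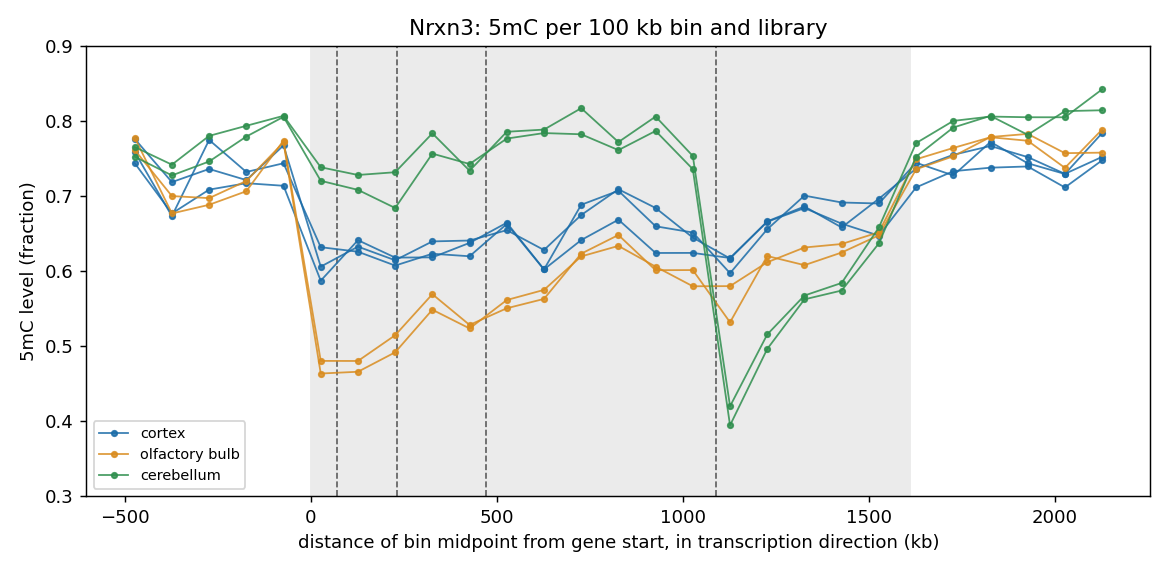
5mC level (fraction) of each oxBS-seq library in 100 kb bins along Nrxn3 and its flanks, against the distance of the bin midpoint from the gene start in kb. Grey marks the gene, dashed lines mark starts of coding transcripts, and each line is 1 library. In cerebellum the level falls from 0.745 to 0.407 at the last dashed line, while olfactory bulb is lowest at the first one, at 0.472.

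In cerebellum, 5mC along Nrxn3 lay above both other tissues over the first 11 bins. Of all bins in cerebellum, between 29.7% and 79.6% were lower than these. The level then dropped at the bin that holds the internal start. The last bin before it (chr12:89700001-89800000) was at 0.753 and 0.736 in the 2 cerebellum libraries, and the bin of the internal start (chr12:89800001-89900000) at 0.420 and 0.394. The means were 0.745 ± 0.0124 and 0.407 ± 0.0180 (SD, n = 2). In cortex the same bins were at 0.640 ± 0.0141 and 0.610 ± 0.0115 (n = 3), and in olfactory bulb at 0.591 ± 0.0153 and 0.556 ± 0.0341 (n = 2). The step of 0.337 ± 0.00553 in cerebellum was the 89th largest in absolute size among 25609 pairs of neighbouring bins, whose median step was 0.0325. The step of 0.0296 ± 0.0237 in cortex had 44.4% of the pairs below it, and that of 0.0347 ± 0.0494 in olfactory bulb had 49.8%. Only 0.600% of all bins had a lower 5mC level in cerebellum than the bin of the internal start.

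Beyond the internal start, 5mC in cerebellum climbed back bin by bin towards the 3′ end. It was 0.506 ± 0.0136, 0.565 ± 0.00361, 0.579 ± 0.00712 and 0.648 ± 0.0150 in the next bins and reached 0.761 ± 0.0128 in the last, chr12:90300001-90400000, of which only a part lies in the gene. The cortex ran between 0.610 and 0.731 over these 6 bins and the olfactory bulb between 0.556 and 0.742. Averaged over the 11 bins before the internal start and the 6 from it on, cerebellum went from 0.758 ± 0.0128 to 0.578 ± 0.0117, cortex from 0.640 ± 0.00954 to 0.674 ± 0.00794 and olfactory bulb from 0.556 ± 0.00587 to 0.636 ± 0.0109. In these averages every cerebellum library was thus above the other 2 tissues before the internal start and below them after it. This division was chosen after the values were seen. In single bins the order did not hold to the 3′ end. The cerebellum libraries overlapped those of olfactory bulb at 90200001. They were the highest in the last bin, at 0.771 and 0.752. In GENCODE, 2 coding transcripts of 1290 and 1701 coding bases start in the bin of the drop, whereas those that start upstream, in bins at 88700001, 88900001 and 89100001 hold between 3300 and 4713 coding bases.

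The olfactory bulb had the opposite course, with its lowest 5mC at the 5′ end. The first bin (chr12:88700001-88800000), which holds the upstream start, was at 0.480 and 0.464 in olfactory bulb, at 0.606, 0.632 and 0.587 in cortex and at 0.738 and 0.720 in cerebellum. The tissues did not overlap, and 1.53% of all bins were lower in olfactory bulb. The flanking bin just upstream, chr12:88600001-88700000, was at 0.774 and 0.771 in olfactory bulb and at 0.767, 0.744 and 0.714 in cortex, so the olfactory bulb lay above cortex on one side of the gene boundary and below it on the other. The mean of the first 6 bins minus that of the last 6 was -0.121 ± 0.0189 (SD, n = 2) in olfactory bulb, -0.0446 ± 0.00723 (n = 3) in cortex and +0.163 ± 0.00159 (n = 2) in cerebellum. Every library of cerebellum had the opposite sign to every library of the other tissues.

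Named by the fixed rule, the highest 5mC along Nrxn3 was at 90300001 in cortex and olfactory bulb (0.731 and 0.742) and at 89400001 in cerebellum (0.800), and the lowest was at 88700001 in cortex and olfactory bulb (0.608 and 0.472) and at 89800001 in cerebellum (0.407). Between olfactory bulb and cortex the fraction difference reached -0.160 at 88800001, and its highest value was 0.0115 at 90300001. Between cerebellum and cortex it ran from 0.175 at 89300001 to -0.203 at 89800001. Between cerebellum and olfactory bulb it ran from 0.257 at 88700001 to -0.149 at 89800001. The largest losses of cerebellum against both other tissues thus fell on the bin of the internal start.

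In the limma test over all bins, with an adjusted p under 0.05, 13 of the 17 bins of Nrxn3 were lower in olfactory bulb than in cortex, against 2.18% of all bins, 0 were higher, against 37.6%, and 4 did not pass. Against cortex, 11 bins were higher in cerebellum, 4 were lower and 2 did not pass, against 71.9% higher and 4.44% lower of all bins. Against olfactory bulb, 11 were higher in cerebellum and 4 lower, against 35.3% and 7.69%. All 11 higher bins lie before the internal start in both comparisons, and all 4 lower ones begin at it. Nothing is read from these counts, since the values that chose the genes may be among them, and the comparisons share libraries.

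5hmC in Nrxn3 was measured in 3 bins of 1 Mb and was highest in the middle one, which lies wholly in the gene, in cortex and olfactory bulb, and in the 3′ one in cerebellum. The middle bin, chr12:89000001-90000000, was at 0.289, 0.291 and 0.283 in olfactory bulb, at 0.213, 0.225 and 0.203 in cortex and at 0.151, 0.157 and 0.156 in cerebellum. The tissues did not overlap. With a mean of 0.288 ± 0.00396 (SD, n = 3) it was the 2nd highest of 2581 bins in olfactory bulb, 204th in cortex and 238th in cerebellum, and it had the largest difference between olfactory bulb and cortex of all bins. The bin of the 5′ end, chr12:88000001-89000000, which also holds 9 other coding genes, was at 0.173, 0.183 and 0.175 in olfactory bulb, at 0.146, 0.159 and 0.139 in cortex and at only 0.0585, 0.0579 and 0.0581 in cerebellum. The bin of the 3′ end, chr12:90000001-91000000, with Dio2 and Cep128 beside the gene, was at 0.177, 0.191 and 0.166 in cortex, at 0.191, 0.195 and 0.188 in olfactory bulb and at 0.189, 0.186 and 0.186 in cerebellum.

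In the 3′ bin the libraries of all tissues overlapped, and those of cerebellum lay within the range of the cortex. In a fit of cortex and olfactory bulb alone, with same-numbered libraries paired, this bin was called higher in olfactory bulb. The difference was 0.14 ± 0.05 (SE) on the log2 ratio scale (limma adjusted p = 0.012). This fit was added, and its pairing read from the data, after the values were seen. The bin was not called without the pairing (adjusted p = 0.086). Nor was it called with the replicate number as a block across all 3 tissues (adjusted p = 0.0577). Among differences of cerebellum minus cortex this bin ranked 14th highest of 2581, while the 5′ bin ranked 1971st. The fitted difference of cerebellum minus cortex rose from -1.49 ± 0.07 (SE) in the 5′ bin over -0.57 in the middle bin to 0.09 in the 3′ bin on the log2 ratio scale, where the median bin stood at -0.97. In cerebellum the level itself went from 0.0581 ± 0.000328 over 0.155 ± 0.00324 to 0.187 ± 0.00130 from the 5′ to the 3′ bin. Over the 3 bins, of which 53.7% lies in the gene, the mean 5hmC was 0.219 ± 0.00372 in olfactory bulb (SD, n = 3 in each tissue). It was 0.180 ± 0.0113 in cortex and 0.133 ± 0.000547 in cerebellum. Of all genes, 99.9% had a lower difference between olfactory bulb and cortex. The fitted difference of olfactory bulb minus cortex was 0.35 ± 0.07, or 0.62 relative to the median gene. That of cerebellum minus cortex was -0.51 ± 0.07, which turned to 0.25 relative to the median gene.

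**Figure D2:**
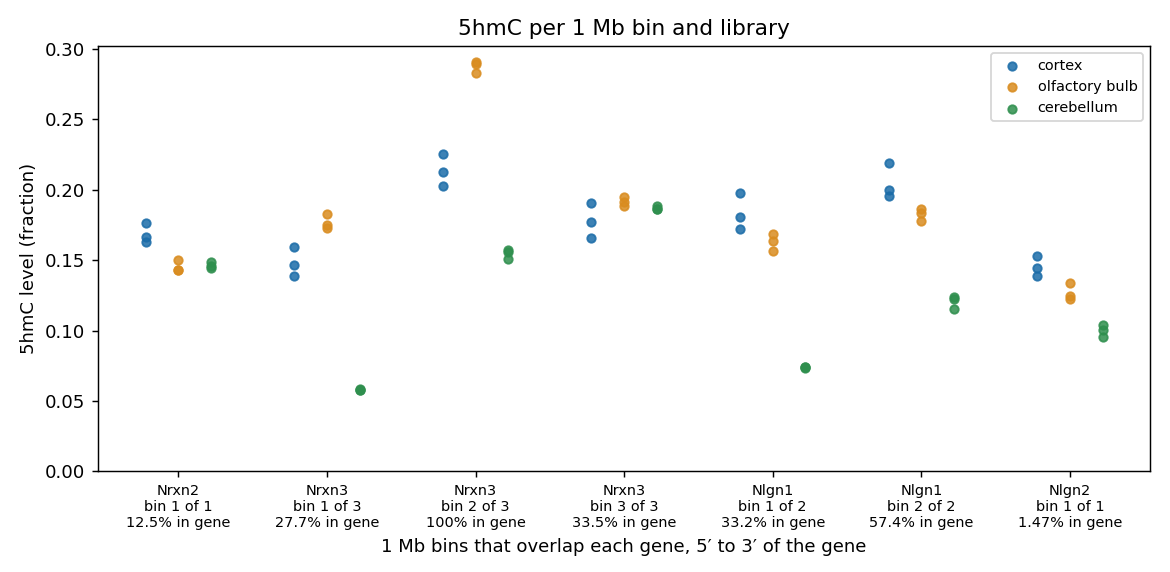
5hmC level (fraction) of each TAB-seq library in the 7 bins of 1 Mb that overlap the genes, ordered from the 5′ to the 3′ end of each gene, with the share of the bin that lies in the gene. Each point is 1 library. The olfactory bulb reaches 0.288 in the middle bin of Nrxn3. The cerebellum ranges from 0.0581 to 0.187 over the bins that overlap that gene, of which the outer ones lie mostly outside it.

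The sum of 5mC and 5hmC, taken from different libraries over the same 1 Mb bins, varied less between the tissues than either mark in the middle and 5′ bins of Nrxn3. In the middle bin the sum came to 0.860 ± 0.0148 for cortex, 0.872 ± 0.00396 for olfactory bulb and 0.864 ± 0.0117 for cerebellum, where the error joins the SD of both assays. These sums differed by less than their errors. In the 3′ bin it was the sum that varied more, at 0.899 ± 0.0181, 0.914 ± 0.00742 and 0.924 ± 0.0101 in the same order of tissues. Of the sum in the middle bin, 5hmC made up 24.8% (cortex), 33.0% (olfactory bulb) and 17.9% (cerebellum). In the 3′ bin these shares were 19.8%, 21.0% and 20.2%, and the genome medians were 20.5%, 17.8% and 11.0%. In the 5′ bin the cerebellum had a sum of 0.810 ± 0.0163, of which 7.18% was 5hmC, and the cortex 0.854 ± 0.0151, of which 17.4% was.

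Nrxn2 had the lowest mean 5mC of the 4 genes in every tissue, although its cortex libraries overlapped those of Nlgn2, and lay in a CpG-rich region with between 1408 and 1939 CpG sites per bin, against between 471 and 616 in the bins of Nrxn3. Its mean 5mC level was 0.506, 0.513 and 0.506 in cortex, 0.440 and 0.436 in olfactory bulb and 0.461 and 0.473 in cerebellum. The libraries did not overlap, and the order was olfactory bulb, cerebellum, cortex from low to high. Only 2.75% of genes were lower in olfactory bulb and 4.65% in cerebellum. The difference of olfactory bulb minus cortex was -0.41 ± 0.11 (SE) on the log2 ratio scale and -0.61 relative to the median gene. That of cerebellum minus cortex was -0.24 ± 0.11, or -0.53 relative to the median gene, and only 3.77% of genes had a lower fraction difference. As deposited, it did not pass the threshold (limma adjusted p = 0.0616). In the 5′ bin alone it had the other sign, at 0.16 ± 0.12, and did not pass either.

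The pair of bins of Nrxn2 went different ways. The 5′ bin, chr19:6400001-6500000, was at 0.361 and 0.358 in olfactory bulb, at 0.472, 0.465 and 0.445 in cortex and at 0.482 and 0.495 in cerebellum, and only 0.230% of all bins were lower in olfactory bulb. The 3′ bin, chr19:6500001-6600000, was at 0.441 and 0.450 in cerebellum, at 0.518 and 0.514 in olfactory bulb and at 0.540, 0.561 and 0.567 in cortex. The tissues did not overlap in either bin. The olfactory bulb was thus the lowest at the 5′ end and the cerebellum at the 3′ end. All 9 coding transcripts of Nrxn2 start in the 5′ bin, but 2 of them, with 1059 and 1980 coding bases, start at 6497835 and 6497828, so nearly all of their length lies in the 3′ bin. The bins are shared with Rasgrp2 and Slc22a12, and the part of those genes in the levels was not tested.

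5hmC in the 1 Mb bin of Nrxn2 was 0.166, 0.176 and 0.163 in cortex, 0.143, 0.150 and 0.143 in olfactory bulb and 0.146, 0.145 and 0.149 in cerebellum. Cortex lay above both other tissues, which overlapped. The bin ranked 317th of 2581 in cerebellum but 1456th in cortex and 1442nd in olfactory bulb. The difference of cerebellum minus cortex was -0.24 ± 0.07 (SE) on the log2 ratio scale as deposited and 0.53 relative to the median gene, so its sign depends on the scaling. The sum of both marks in this bin was 0.708 ± 0.0199, 0.688 ± 0.00599 and 0.680 ± 0.00291 in cortex, olfactory bulb and cerebellum, below the genome medians of 0.851, 0.864 and 0.837.

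**Figure D3:**
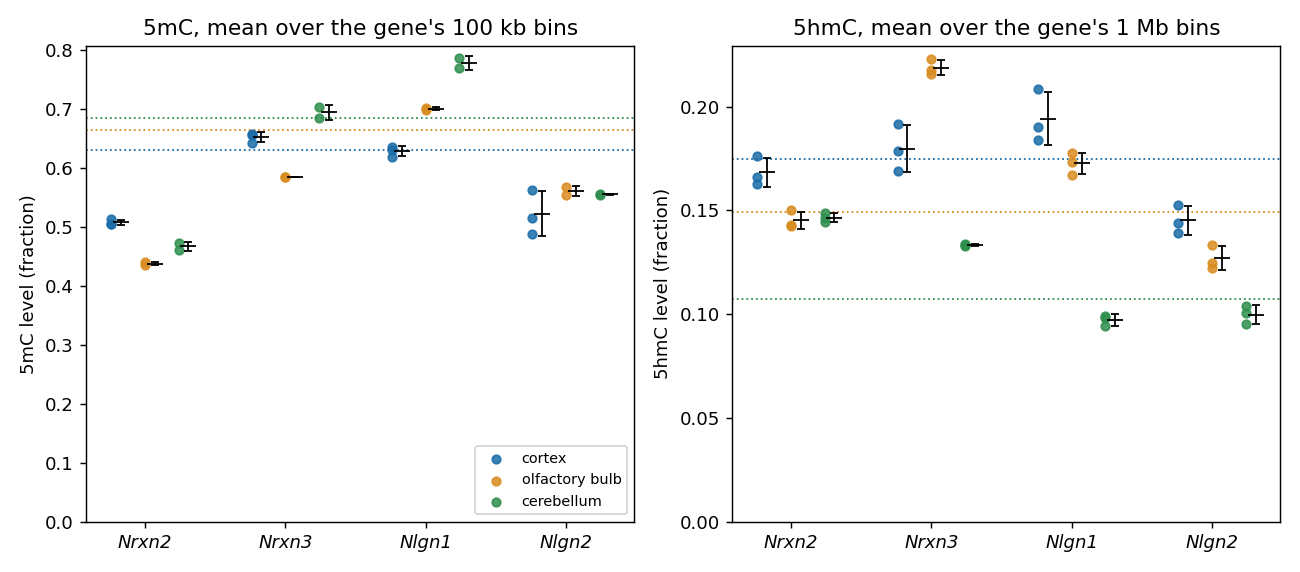
5mC (left) and 5hmC (right) level (fraction) of each gene in each library, as the mean over its bins. Points are libraries, black bars give the mean ± SD, and dotted lines give the median of all protein-coding genes in each tissue. Nrxn3 is lowest in 5mC and highest in 5hmC in olfactory bulb (0.584 and 0.219), and Nlgn1 highest in 5mC and lowest in 5hmC in cerebellum (0.778 and 0.0972).

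Nlgn1 rose in 5mC from cortex over olfactory bulb to cerebellum and fell in 5hmC in the same order. Its mean 5mC level over 10 bins was 0.636, 0.631 and 0.619 in cortex, 0.702 and 0.699 in olfactory bulb and 0.786 and 0.769 in cerebellum. The libraries did not overlap. The means were 0.629 ± 0.00882 (SD, n = 3), 0.700 ± 0.00245 (n = 2) and 0.778 ± 0.0117 (n = 2). The difference of cerebellum minus cortex was 1.05 ± 0.11 (SE) on the log2 ratio scale and 0.76 relative to the median gene, and 99.4% of genes had a lower fraction difference. That of olfactory bulb minus cortex was 0.47 ± 0.11, or 0.27 relative to the median gene.

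The order of the tissues was the same in all 10 bins of Nlgn1, in which the libraries of the 3 tissues never overlapped. In the 10 bins flanking the gene the same held for 9 bins between olfactory bulb and cortex, 10 between cerebellum and cortex and 8 between cerebellum and olfactory bulb. The lowest level along the gene fell in the same bin in each tissue, chr3:26100001-26200000, in which 3 of the 4 coding transcripts of GENCODE start. It was at 0.567, 0.580 and 0.586 in cortex, at 0.649 and 0.631 in olfactory bulb and at 0.721 and 0.701 in cerebellum. The outer start lies in chr3:26300001-26400000, which was at 0.754 ± 0.00544 in cerebellum, 0.687 ± 0.0290 in olfactory bulb and 0.624 ± 0.0156 in cortex. The highest level was at the 3′ end in each tissue, chr3:25400001-25500000, with 0.830 ± 0.0253, 0.751 ± 0.0114 and 0.692 ± 0.0172.

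The differences between the tissues kept their sign along Nlgn1 but varied in size. Between cerebellum and cortex the fraction difference ran from 0.115 at 26200001 to 0.189 at 25700001. Between olfactory bulb and cortex it ran from 0.0591 at 25400001 to 0.0948 at 25700001, and between cerebellum and olfactory bulb from 0.0503 at 26200001 to 0.0988 at 25500001. The mean of the first 4 bins at the 5′ end minus that of the last 3 was -0.0282 ± 0.0119 (SD, n = 3) in cortex, -0.0319 ± 0.0204 (n = 2) in olfactory bulb and -0.0488 ± 0.00449 (n = 2) in cerebellum, the same sign in every library. With the gene split at its middle instead, the cortex stood at -0.00413, with 1 of its libraries at 0.00862. In the limma test, 10 of 10 bins were higher in olfactory bulb than in cortex, 10 of 10 in cerebellum than in cortex and 10 of 10 in cerebellum than in olfactory bulb, beside 37.6%, 71.9% and 35.3% of all bins.

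**Figure D4:**
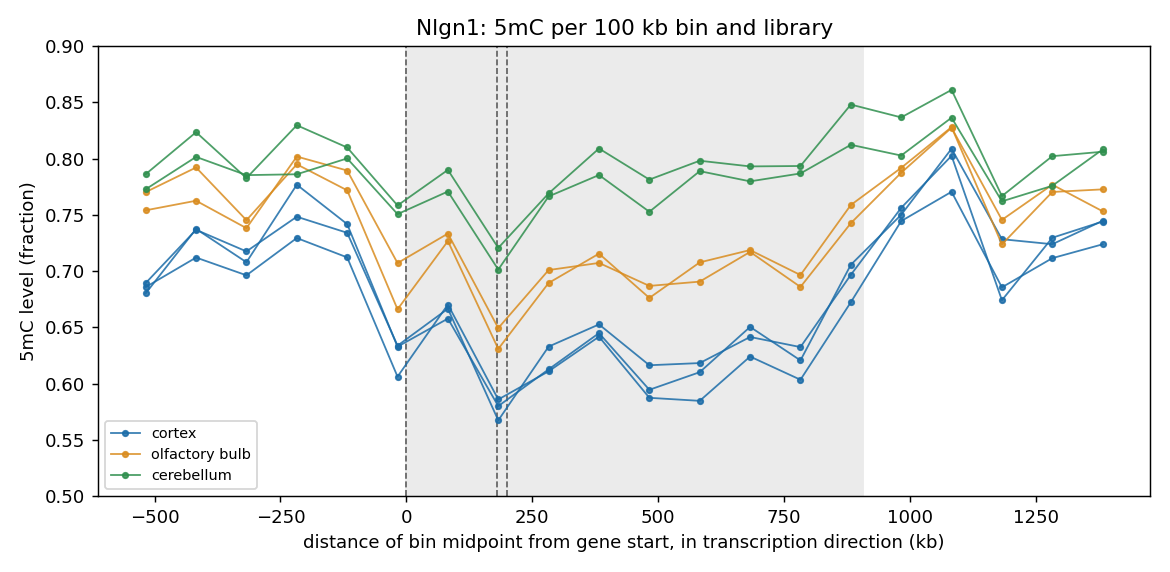
5mC level (fraction) of each oxBS-seq library in 100 kb bins along Nlgn1 and its flanks, against the distance of the bin midpoint from the gene start in kb, in the direction of transcription. Grey marks the gene, dashed lines mark starts of coding transcripts, and each line is 1 library. The tissues keep their order in all 10 bins, from 0.578 in cortex to 0.711 in cerebellum at the lowest point.

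The dip of Nlgn1 below its surroundings was deepest in cortex and shallowest in cerebellum. The gene minus its flanks, 10 bins each, was -0.102 ± 0.00643 (SD, n = 3) in cortex, -0.0744 ± 0.00418 (n = 2) in olfactory bulb and -0.0240 ± 0.000546 (n = 2) in cerebellum, with no overlap between libraries of different tissues. The flanks themselves were at 0.730 ± 0.0117, 0.775 ± 0.00173 and 0.802 ± 0.0123. Nrxn3, for comparison, lay below its flanks in every library, with a difference of -0.163 ± 0.00276 in olfactory bulb, -0.0859 ± 0.00449 in cortex and -0.0938 ± 0.00338 in cerebellum. Nrxn2 stood at -0.140 ± 0.000355, -0.0442 ± 0.0175 and -0.0934 ± 0.0137. Both neurexins were thus furthest below their flanks in olfactory bulb, and Nlgn1 in cortex. With only the flank bins free of other coding genes, 1 bin for Nrxn2, the olfactory bulb and cerebellum of Nrxn2 stood at -0.256 ± 0.0172 and -0.257 ± 0.0370, so this order was lost there. The cortex of Nrxn2 ran from -0.0109 against flanks of 1 Mb, with 1 library above 0 at 0.00376, to -0.172 against that single bin.

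5hmC in Nlgn1 was 0.190, 0.208 and 0.184 in cortex, 0.167, 0.177 and 0.173 in olfactory bulb and 0.0983, 0.0941 and 0.0992 in cerebellum, as the mean of 2 bins of 1 Mb. The libraries did not overlap. The difference of cerebellum minus cortex was -1.16 ± 0.07 (SE) on the log2 ratio scale and -0.40 relative to the median gene, and 6.00% of genes had a lower fraction difference. That of olfactory bulb minus cortex was -0.20 ± 0.07 as deposited and 0.06 relative to the median gene, so it kept no sign across the scalings. The 5′ bin, chr3:26000001-27000000, with Spata16 beside the gene, had 0.0742, 0.0731 and 0.0744 in cerebellum and 0.181, 0.197 and 0.172 in cortex. The 3′ bin, chr3:25000001-26000000, with Naaladl2 beside the gene, had 0.122, 0.115 and 0.124 in cerebellum and between 0.195 and 0.219 in cortex. The 5′ bin ranked 2425th of 2581 for cerebellum minus cortex and the 3′ bin 1784th. Of the sum of both marks, 21.2% was 5hmC in cortex and 8.65% in cerebellum in the 5′ bin, and 23.3% and 13.1% in the 3′ bin.

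Nlgn2 differed least between the tissues in 5mC. Its 1 bin of 100 kb was at 0.515, 0.563 and 0.489 in 5mC in cortex, at 0.567 and 0.555 in olfactory bulb and at 0.554 and 0.556 in cerebellum. All tissues overlapped with each other. The differences from cortex were 0.22 ± 0.12 (SE) for olfactory bulb and 0.19 ± 0.12 for cerebellum on the log2 ratio scale, or 0.03 and -0.10 relative to the median gene, and neither passed the threshold. Without replicate 2 of cortex, the highest of the 3, both passed, at 0.34 and 0.31. The gene minus its flanks was -0.0124 ± 0.0260 (SD, n = 3) in cortex, 0.0162 ± 0.00527 (n = 2) in olfactory bulb and -0.00732 ± 0.00420 (n = 2) in cerebellum, so the bin lay close to its surroundings.

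5hmC in the 1 Mb bin of Nlgn2 was 0.144, 0.153 and 0.139 in cortex, 0.125, 0.133 and 0.122 in olfactory bulb and 0.0951, 0.101 and 0.104 in cerebellum. The libraries did not overlap, in the order of the medians of all genes. Relative to the median gene, the difference from cortex was 0.04 in olfactory bulb and 0.15 in cerebellum, against -0.23 ± 0.07 and -0.62 ± 0.07 as deposited.

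**Figure D5:**
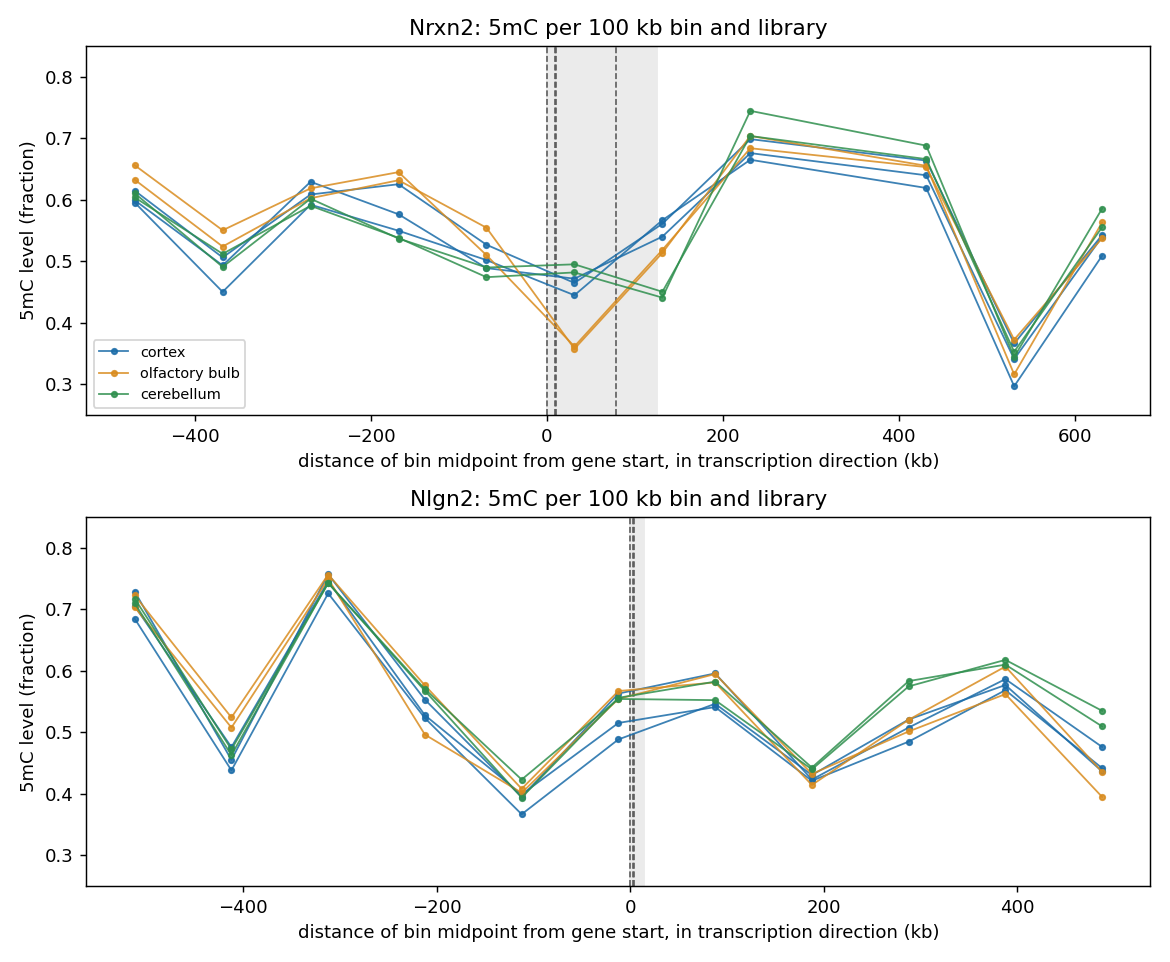
5mC level (fraction) of each oxBS-seq library in 100 kb bins across Nrxn2 (top) and Nlgn2 (bottom) with their flanks, against the distance of the bin midpoint from the gene start in kb, in the direction of transcription. Grey marks the gene, dashed lines mark starts of coding transcripts, and each line is 1 library, drawn across 1 bin of the Nrxn2 flank that is listed at 0. In the 5′ bin of Nrxn2 the olfactory bulb is lowest at 0.360 and in the 3′ bin the cerebellum at 0.446, whereas the libraries of all tissues overlap in the bin of Nlgn2.

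Over the 30 bins of all 4 genes, 10 were higher and 14 lower in olfactory bulb than in cortex, beside 37.6% and 2.18% of all bins, with 6 not past the threshold. For cerebellum minus cortex 21 were higher, a share near that of all bins, 71.9%, and 5 lower, beside 4.44%. For cerebellum minus olfactory bulb 22 were higher and 5 lower, beside 35.3% and 7.69%. The bins of Nrxn3 and Nlgn1 make up most of these counts. Of the 7 bins of 5hmC, 2 were higher and 4 lower in olfactory bulb than in cortex, where 3.25% and 67.7% of all bins were, and both higher ones belong to Nrxn3. In cerebellum 6 of 7 were lower than in cortex, beside 97.6% of all bins, and 0 higher, beside 0.426%. Against olfactory bulb, 5 of 7 were lower in cerebellum, beside 91.8%, and 0 higher, beside 1.20%. Without either library of olfactory bulb, the count of 5mC bins past the threshold between olfactory bulb and cortex fell from 24 to 14 (without replicate 1) and 15 (without replicate 2).

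Other genes of the same adhesion system were taken from a fixed list of 46 genes. Between olfactory bulb and cortex, 13 of them were higher in 5mC, 1 was lower and 32 did not pass, beside 26.4% and 0.867% of all genes, and their median difference was 0.21 on the log2 ratio scale against 0.20 for all genes. Extracellular partners had 10 of 26 higher, presynaptic cytoplasmic partners 2 of 8 higher and 1 lower, and postsynaptic cytoplasmic partners 1 of 12 higher. The lower gene was Lin7c, part of the scaffold that binds neurexin tails, with a mean of 0.577 ± 0.000184 (SD, n = 2) in olfactory bulb and 0.640 ± 0.0255 (n = 3) in cortex. The largest rises were those of Lrrtm1, which encodes a postsynaptic neurexin ligand, from 0.499 ± 0.0368 in cortex to 0.651 ± 0.00995, of Apba2, an adaptor of the presynaptic scaffold, from 0.545 ± 0.0179 to 0.674 ± 0.0153, and of Clstn1, a calsyntenin, from 0.537 ± 0.0232 to 0.648 ± 0.00108. The smallest rises past the threshold were those of Lrrtm2, of the same family as Lrrtm1, with a fraction difference of 0.0506, and of Nxph2, a neurexophilin that binds α-neurexins, with 0.0540.

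Between cerebellum and cortex, 27 of the 46 genes were higher in 5mC, 2 were lower and 17 did not pass, beside 55.1% and 4.27% of all genes. The median difference was 0.32, against 0.29 for all genes. It was 0.33 for the 26 extracellular partners, of which 18 were higher and 2 lower. For the 8 presynaptic cytoplasmic partners it was 0.17, below that of all genes, with 1 higher and 0 lower. For the 12 postsynaptic cytoplasmic partners it was 0.60, with 8 higher and 0 lower. The lower genes were Cbln1, the cerebellin that links neurexins to glutamate receptors of the delta type at cerebellar synapses, with 0.492 ± 0.0348 (SD, n = 2) in cerebellum and 0.583 ± 0.0456 (n = 3) in cortex, and Lrrtm3, with 0.505 ± 0.000108 and 0.574 ± 0.0272. The largest rises were those of Lrrtm1, to 0.698 ± 0.0272, of Adgrl2, a latrophilin, from 0.580 ± 0.0163 to 0.742 ± 0.0187, and of Mdga2, which binds neuroligins and keeps neurexins off them, from 0.664 ± 0.0133 to 0.812 ± 0.0133. The smallest rise was that of Cbln2, with a fraction difference of 0.0433. Both comparisons share the cortex libraries.

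For cerebellum minus olfactory bulb, 16 of the 46 genes were higher in 5mC and 5 lower, beside 18.0% and 7.69% of all genes. In 5hmC, 31 of the 46 were lower in olfactory bulb and 45 in cerebellum than in cortex, beside 77.9% and 98.4% of all genes, and 0 were higher in either, beside 1.07% and 0.124%. In cerebellum 42 were lower and 1 higher than in olfactory bulb, beside 88.0% and 1.02%. The median difference of 5hmC was -0.19 in olfactory bulb and -0.67 in cerebellum, against -0.27 and -0.76 for all genes. Nrxn3, which is not among the 46, stood 0.35 higher in 5hmC in olfactory bulb than in cortex in the same fit, where 1.07% of all genes passed as higher.

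By the Euclidean distance over the 16 library levels of both marks, the genes most like Nrxn3 were Cdh4, Ctdp1 and Upp2, at distances of 0.0647, 0.0662 and 0.0663 against a median of 0.280 for all genes. Those most like Nlgn1 were Gabrb1, Ctnna2 and Ifih1, at 0.0375, 0.0376 and 0.0401 against a median of 0.271. Zcchc14, 2410015M20Rik and Arid1a were nearest to Nrxn2, at 0.0568, 0.0867 and 0.0900 against 0.514, and Csad, Cadm4 and Espl1 nearest to Nlgn2, at 0.0401, 0.0472 and 0.0488 against 0.353. Among the 4 genes themselves, the nearest pairs were Nrxn3 with Nlgn1, at 0.232, and Nrxn2 with Nlgn2, at 0.241, the long genes together and the short genes together. Of all genes, 34.4% were nearer to Nrxn3 than Nlgn1 was and 11.5% nearer to Nrxn2 than Nlgn2 was.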

How the data were processed

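The 7 oxBS-seq libraries (5mC) and 9 TAB-seq libraries (5hmC) came from cortex, olfactory bulb and cerebellum. Each library was placed in its tissue by its title. The authors mapped reads uniquely to mm10 with Bismark (its version is not given in the sources used here) and deposited the level of each bin as a fraction from 0 to 1. How sites were combined within a bin is not stated, and coverage was not part of the tables. Columns or files of the 6 RNA-seq samples were not analysed here.

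A bin with a level of exactly 0 or 1 in some library was dropped for that assay, which kept 25664 bins of 5mC and 2581 of 5hmC. The level of a gene was the unweighted mean over the bins that overlap it. Levels were transformed to log2(level/(1 − level)). Tissue differences were then fitted with limma (3.58.1, under R 4.3.3) across all protein-coding genes or all bins, each assay in a single model of the 3 tissues. P-values were adjusted by Benjamini-Hochberg, and calls used an adjusted p under 0.05. In the 5hmC fits the SE was the same in all genes or bins. The fits were also run on simulated levels with independent normal noise of the size limma had estimated. Such levels carry no shift of a whole library, so nothing about the real calls is drawn from them. Gene positions came from GENCODE vM21. Python 3.11.15 with pandas 2.3.3 and numpy 2.4.6 did the rest, and matplotlib 3.10.9 the plots.

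The members and the gene lists were chosen with earlier results of these data known. Named were all members, of the partner list the 3 genes with the largest and the 3 with the smallest 5mC fraction difference past the threshold for cerebellum or olfactory bulb minus cortex, for each member the 3 nearest genes over the 16 library levels on another chromosome or over 5 Mb away, and along a gene the bins with the extreme levels and differences.

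The oxBS-seq libraries carry other replicate numbers in their deposited names than in their titles, and the titles' numbers were used here. These were checked for pairing by correlating deviations from the tissue means over bins. Same-numbered 5hmC libraries of cortex and olfactory bulb correlated with r of 0.126, 0.344 and 0.250, and those of the other 5hmC pairs of tissues with r from -0.229 to 0.0743. For 5mC r lay between -0.0906 and 0.0158. Differently numbered 5hmC libraries reached r of similar size, 0.299 for replicate 3 of olfactory bulb with replicate 2 of cerebellum. Among the 5hmC libraries, r was positive for every number only between cortex and olfactory bulb. A pairing there comes from the data and not from the labels, and these values of r do not establish it. The paper's wording allows tissues to share a mouse, but no label names the mouse of a library. The alternatives were other scales, limma options, weights, bins and flanks, a replicate block, and fits without each library in turn.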

Additional observations from a re-analysis of the deposited data

Results flagged for a closer look

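The mean 5mC of the first 6 bins of Nrxn3 minus that of the last 6 had one sign in every cerebellum library, with a mean of 0.163, and the opposite sign in every library of cortex, with a mean of -0.0446, and of olfactory bulb, with a mean of -0.121. The difference between the tissues was not tested. The bin of 5mC at Nlgn2 lay above its flanks in both libraries of olfactory bulb, by 0.0162 on average, and below them in both libraries of cerebellum, at -0.00732. This difference was not tested either, and with 2 libraries in each group the signs rest on few values. Against flanks of 1 Mb, 1 of the olfactory bulb libraries stood below its flanks, at -0.000236. Nlgn2 makes up only 14.7% of this bin.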

How the results depend on the processing

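With all bins kept, or with limma's trend and robust options, 24 of 24 differences kept their direction and their side of the threshold. The 6 counts of bins past the threshold stayed within a set margin in both, which does not follow single bins. Centring each library on its median, the scaling to which the results were most sensitive, turned the 5mC difference of cerebellum minus cortex to -0.0647 for Nrxn3 and -0.15 for Nlgn2. For 5hmC it turned olfactory bulb minus cortex to 0.0201 (Nrxn2), 0.0684 (Nlgn1) and 0.0467 (Nlgn2), cerebellum minus cortex to 0.58 (Nrxn2), 0.30 (Nrxn3) and 0.20 (Nlgn2), and cerebellum minus olfactory bulb to 0.15 for Nlgn2. It brought Nrxn2 past the threshold at -0.58 (5mC, cerebellum minus cortex) and 0.56 (5hmC, cerebellum minus olfactory bulb), and left 3 in place of 6 bins of 5hmC past it between olfactory bulb and cortex. Nrxn2 also passed for cerebellum minus cortex in 5mC on the fraction scale, at -0.0411, but not with bins weighted by their bases in the gene, at -0.12 (adjusted p = 0.368), and passed for cerebellum minus olfactory bulb with that weighting, at 0.34.

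With the replicate number as a block, Nrxn2 passed at -0.24 for cerebellum minus cortex in 5mC, where no pairing by number was seen. The numbers are those of the titles, which differ from those in the deposited names. This block may thus join libraries of different mice, and nothing is read from the changed call. For 5hmC of cortex and olfactory bulb alone, where a pairing was read from the data, the block was added after seeing the data. It changed no call of a gene. The 3′ bin of Nrxn3 passed with it, at 0.14, so that 7 bins passed in place of 6. With the block across all 3 tissues this bin did not pass (limma adjusted p = 0.0577).

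Leaving out 1 library at a time, the log2 ratio difference of olfactory bulb minus cortex in 5mC ranged from -0.42 to -0.39 for Nrxn2, from -0.45 to -0.40 for Nrxn3, from 0.44 to 0.49 for Nlgn1 and from 0.13 to 0.34 for Nlgn2. Without replicate 1 of olfactory bulb the first 3 no longer passed, and without replicate 2 Nrxn2 and Nrxn3 did not, with 1 library left that is assumed to vary like the others. The count of bins past the threshold there ranged from 14 to 27. For cerebellum minus cortex the range was -0.27 to -0.20 for Nrxn2, which passed without replicate 3 of cortex, 0.22 to 0.34 for Nrxn3, which did not pass without either cerebellum library or without replicate 1 of cortex, and 0.0930 to 0.31 for Nlgn2, which passed without replicate 2 of cortex. For cerebellum minus olfactory bulb, Nlgn2 ranged from -0.0698 to 0.00496, with the sign turned without replicate 1 of olfactory bulb.

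Averaged over libraries, the differences of a gene from its flanks kept their sign except for Nlgn2 in cortex with medians over bins (0.00268). Even so, 33 of 39 turned or moved by more than the SD between libraries. With flanks of 1 Mb, cortex, olfactory bulb and cerebellum stood at -0.0109, -0.112 and -0.0753 for Nrxn2 and at -0.0943, -0.0623 and -0.0169 for Nlgn1, cortex and olfactory bulb at -0.0984 and -0.179 for Nrxn3, and olfactory bulb and cerebellum at 0.00275 and -0.0147 for Nlgn2. With flank bins free of other coding genes, of which Nlgn2 had none, the 3 tissues stood at -0.172, -0.256 and -0.257 (Nrxn2), -0.0926, -0.178 and -0.108 (Nrxn3) and -0.128, -0.0986 and -0.0425 (Nlgn1). With bins wholly inside the gene, of which Nrxn2 and Nlgn2 had none, olfactory bulb and cerebellum stood at -0.166 and -0.101 for Nrxn3, and the 3 tissues at -0.109, -0.0790 and -0.0276 for Nlgn1. With medians over bins, cortex and olfactory bulb stood at -0.0700 and -0.173 for Nrxn2, and olfactory bulb and cerebellum at -0.170 and -0.0574 for Nrxn3, -0.0678 and -0.0172 for Nlgn1 and 0.0334 and -0.0129 for Nlgn2. With the gene split at its middle instead of comparing its ends, the 5′ part minus the 3′ part was -0.0927 (olfactory bulb) and 0.112 (cerebellum) for Nrxn3 and -0.00413 (cortex) and -0.0313 (cerebellum) for Nlgn1, whose cerebellum stood at -0.0290 with medians over bins. The causes of these shifts were not tested.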
